A study of Mus musculus with 12 samples.

Results

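The 8 genes described here encode components of the mucus that goblet cells secrete, or proteins of the machinery that makes and releases it. They were taken by symbol from the deposited table, which listed all 8 among its 30265 gene symbols: Muc2, Zg16, Clca1, Fcgbp, Tff3, Agr2, Capn9 and Fer1l6. The study sorted intestinal epithelial cells of C57Bl/6 mice into 4 populations by the fluorescence of a Sox9-GFP reporter, namely Sox9 Negative, Sublow, Low and High, and sequenced 3 libraries of each (replicates A, B and C), made from 12000 cells per library. All 4 groups carried the reporter per the labels and no treatment is named. The age and sex of the mice, the stretch of intestine, how many mice stood behind a library, and whether the replicates came from separate mice are details not given in the sources used here, so p-values measure the spread between libraries, which may be technical.

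Goblet cells store mucin in densely packed granules and release it by exocytosis, after which it swells into a gel that keeps bacteria away from the epithelium. Muc2 is the gel-forming mucin of the intestine, and Fcgbp, Clca1 and Zg16 are secreted with it into the gel. The goblet lineage is specified by transcription factors of the secretory pathway, with Atoh1 acting early and Spdef in maturation. Sox9 is a transcription factor of crypt cells, and its reporter is used to separate crypt and villus populations by brightness.

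The libraries held between 11.6 and 17.0 M reads, and a floor of 3 reads was worth 2.38 to 4.61 normalised counts. A normalised count is the authors' read count divided by a size factor for the library. Sox9 itself followed the gates, at 20262 ± 1220 normalised counts (SD, n = 3) in High, 604 ± 191 in Negative, 6601 ± 921 in Low and 2084 ± 897 in Sublow. Marker genes of other cell types differed between the gates as well. Summed over 10 enteroendocrine markers, the High libraries held 384570 to 594408 normalised counts and the Negative libraries 278 to 1214, and 9 tuft cell markers summed to 104562 to 107057 in High and 103 to 228 in Negative. Summed over 10 enterocyte markers, the Negative libraries held 627270 to 969493 and the Low libraries 17905 to 49893. Leukocyte markers summed to 2130 to 3539 in High and to at most 388 in any library of the other populations. Stromal and endothelial markers summed to 3705 to 5583 in High and to at most 1856 in any other library. The stromal marker Dcn went against that order, being listed at 0 in all libraries of High and Sublow. By the limma test described below, 1 of 8 leukocyte markers was higher and 1 lower in High than in Low (23.6% and 19.3% of all genes). Of 5 stromal and endothelial markers tested, 0 were higher and 0 lower. These 2 sums therefore do not describe most genes of their lists. In bulk RNA, a population with fewer goblet cells and a population with less mucus RNA per goblet cell cannot be told apart, and the part of any of these cell types in the results below was not tested.

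Coordinates are those of GRCm38 with GENCODE annotation, release 21 for mouse, and the build used by the authors is not given in the sources used here. Muc2 lies on the plus strand at chr7:141690340-141754693, Fcgbp on the plus strand at chr7:28071236-28120862 and Zg16 on the minus strand at chr7:127050156-127087328. Clca1 lies on the minus strand at chr3:145003817-145032776, Tff3 on the minus strand at chr17:31125306-31129646 and Agr2 on the plus strand at chr12:35992907-36004087. Capn9 lies on the plus strand at chr8:124576111-124618731 and Fer1l6 on the plus strand at chr15:58510048-58665092. All 8 are protein-coding genes, and no other annotated gene shared exon bases with them. How the authors' counting treated reads of repeated sequence, which Muc2 and Fcgbp hold, or of related genes such as the other Clca genes, is not given in the sources used here.

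Since the members moved together across the populations, the sequence just upstream of 3 of them is shown: Muc2, the most studied of the set, Fcgbp, which took most of its reads, and Agr2, whose pattern differed from the rest. Each is the stretch from 250 to 51 bases before the RefSeq start of the gene (GRCm38.p6), read on the strand of the gene, at chr7:141690090-141690289, chr7:28070986-28071185 and chr12:35992675-35992874, all on the plus strand. Capitals mark CAGCTG, an E-box of the kind bound by Atoh1 and related factors, and CACCC, here also where it lies on the other strand, the core of many Klf sites; matches of CACCC in Muc2 overlap.
Muc2: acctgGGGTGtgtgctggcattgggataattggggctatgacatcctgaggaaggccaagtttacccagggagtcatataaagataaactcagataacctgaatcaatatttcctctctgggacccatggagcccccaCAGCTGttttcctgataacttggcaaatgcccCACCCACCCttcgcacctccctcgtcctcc
Fcgbp: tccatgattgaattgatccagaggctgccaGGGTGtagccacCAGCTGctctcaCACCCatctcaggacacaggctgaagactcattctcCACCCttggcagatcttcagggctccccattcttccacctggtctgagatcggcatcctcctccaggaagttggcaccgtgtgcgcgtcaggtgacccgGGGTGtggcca
Agr2: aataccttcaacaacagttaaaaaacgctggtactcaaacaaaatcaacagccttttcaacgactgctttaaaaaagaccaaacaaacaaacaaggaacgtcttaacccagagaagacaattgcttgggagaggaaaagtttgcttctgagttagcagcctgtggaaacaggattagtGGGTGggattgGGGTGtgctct
CAGCTG was found in Muc2, from 112 to 107 bases upstream, and in Fcgbp, from 208 to 203 bases upstream, and was not among the letters of the Agr2 and Capn9 windows. These 4 genes were the members with an entry in the RefSeq table. Of 32851 windows of the same length and position in that table, 10.3% held CAGCTG on either strand. CACCC was found in 3 of the 4, all but Capn9, and in 44.4% of all windows. The other motifs searched on both strands were in none of the 4 windows: the E-box CAGATG, found in 11.95% of all windows, the Fox core TGTTTAC in 2.58%, the Cdx core TTTATNG in 7.65%, the Sox cores ACAAAG in 13.6% and ACAATG in 8.94%, and the Hnf4 core CAAAGT in 10.51%. ACAAAG and CAAAGT can share letters. A match of letters is a description and not a measured site.

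All 8 genes differed among the populations, and Sox9 High held the least of 7 of them. In the test for any difference among the 4 populations (limma moderated F-test, 1 fit of 12 libraries on log2(value + 1), Benjamini-Hochberg adjustment over 16577 genes), 8 of 8 passed, with adjusted p from 2.3e-07 for Muc2 to 0.000262 for Tff3. The same test passed for 69.5% of all genes. The means fell in the order Sublow, Low, Negative, High for 7 of the 8, and for 3.61% of all genes. Agr2 was the exception, with a lower mean in Negative than in High. Together the 8 genes took 0.0772% ± 0.0146 (SD, n = 3) of all reads in High, 0.454% ± 0.185 in Negative, 2.05% ± 1.42 in Low and 3.22% ± 0.816 in Sublow.

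**Figure D1:**
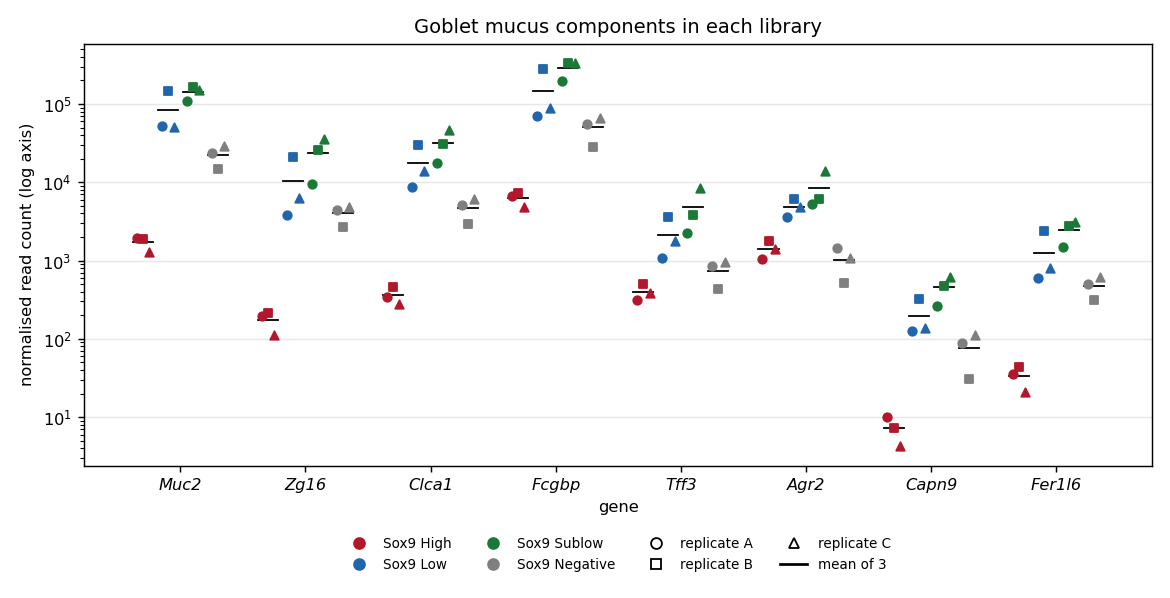
Normalised read count (log axis) of each of the 8 genes in the 12 libraries, with points for libraries, colours for populations, symbols for replicates and a line at the mean of 3. Sublow has the highest mean and High the lowest for every gene but Agr2, whose lowest mean is in Negative, and Low replicate B stands above Low A and C throughout.

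Muc2, which forms the polymer network of the gel, had 1945, 1864 and 1298 normalised counts in High A, B and C, 52007, 144626 and 50863 in Low, 107602, 164377 and 151048 in Sublow and 23836, 14602 and 28845 in Negative. The High libraries lay far below all others, and the Low and Sublow libraries overlapped only through Low B. On the log2 scale Muc2 was lower in High than in Low (−5.44 ± 0.38 SE, adjusted p = 1.5e-06), lower than in Sublow (−6.37 ± 0.38, adjusted p = 9.0e-08) and lower than in Negative (−3.69 ± 0.38, adjusted p = 4.5e-06). Per kilobase of annotated exon, Muc2 ranked 30 of 16500 genes in Sublow and 2758 in High. The Muc2 locus is annotated as fragmented in GENCODE, so its length and that rank are uncertain.

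Fcgbp, a long protein of von Willebrand factor type D domains that is found bound to Muc2 in mucus, took the largest number of reads of the 8 in every library, with between 50.1% of the members' reads in Low A and 63.0% in High A. It had 6615, 7276 and 4775 normalised counts in High, 70379, 275892 and 89708 in Low, 195602, 330229 and 332059 in Sublow and 56157, 28473 and 65714 in Negative. Low B lay among the Sublow libraries, and the other Low libraries lay not far above Negative A and C. Fcgbp was lower in High than in Low (log2 −4.30 ± 0.47 SE, adjusted p = 2.5e-05), Sublow (−5.50 ± 0.47, adjusted p = 1.3e-06) and Negative (−2.95 ± 0.47, adjusted p = 0.000156). It was the highest of the 8 per kilobase in Low, Sublow and Negative, at rank 19 of all genes in Sublow, but in High both Agr2 and Tff3 stood above it.

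Clca1, a secreted metalloprotease that cuts Muc2 and loosens the gel, had 342, 456 and 280 normalised counts in High, 8768, 30229 and 14046 in Low, 17743, 30443 and 45890 in Sublow and 5160, 2908 and 6169 in Negative. Zg16, a small lectin-like protein that binds the wall of Gram-positive bacteria, had 196, 213 and 113 in High, 3844, 21071 and 6369 in Low, 9432, 25979 and 35248 in Sublow and 4371, 2707 and 4900 in Negative. For both genes High lay apart from every other library. Zg16 had the widest spread within Low, its highest library being 5.48 times its lowest, and Low A lay below Negative A and C. The difference between High and Sublow was the largest of the set for Zg16 (log2 −6.93 ± 0.58 SE, adjusted p = 1.3e-06) and similar in Clca1 (−6.37 ± 0.45, adjusted p = 3.1e-07) and Muc2.

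Tff3, a small trefoil peptide that is secreted with the mucin, had 310, 498 and 383 normalised counts in High, 1075, 3569 and 1772 in Low, 2246, 3834 and 8347 in Sublow and 850, 434 and 954 in Negative. High was lower than Low (log2 −2.28 ± 0.50 SE, adjusted p = 0.00279) and Sublow (−3.41 ± 0.50, adjusted p = 0.000107), but its libraries overlapped those of Negative. Against Negative the difference was −0.86 ± 0.50 with an adjusted p of 0.166, and 0.0368 when only those 6 libraries were in the fit.

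Agr2, a protein disulfide isomerase of the endoplasmic reticulum needed for the making of Muc2, had 1047, 1777 and 1419 normalised counts in High, 3651, 6037 and 4870 in Low, 5351, 6078 and 14123 in Sublow and 1441, 520 and 1085 in Negative. Its libraries fell into a higher pair of populations, Low and Sublow, and a lower pair, High and Negative, with overlap inside each pair. The difference between High and Negative was 0.57 ± 0.41 SE on the log2 scale (adjusted p = 0.265), and that between High and Low −1.78 ± 0.41 (adjusted p = 0.00378). In High, Agr2 was the highest of the 8 per kilobase, at rank 413 of 16500 genes, followed by Tff3 at 591 and Fcgbp at 907.

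Capn9, a calpain of the gut whose family are calcium-dependent proteases, was the least abundant of the set. It had 9.92, 7.37 and 4.22 normalised counts in High (11, 8 and 5 reads), 125, 323 and 138 in Low, 266, 475 and 624 in Sublow and 88.7, 30.8 and 113 in Negative. All High libraries were above the floor of 3 reads, and the added 1 makes the fold against such low values smaller. Fer1l6, of the ferlin family of membrane proteins that includes vesicle fusion factors, had 36.1, 43.3 and 21.1 in High, 593, 2388 and 793 in Low, 1508, 2773 and 3145 in Sublow and 507, 315 and 616 in Negative. The order of the populations was that of Muc2 in both, at a much lower level: in Sublow Fer1l6 ranked 2505 and Capn9 3963 per kilobase, against 103 or better for the other 6.

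**Figure D2:**
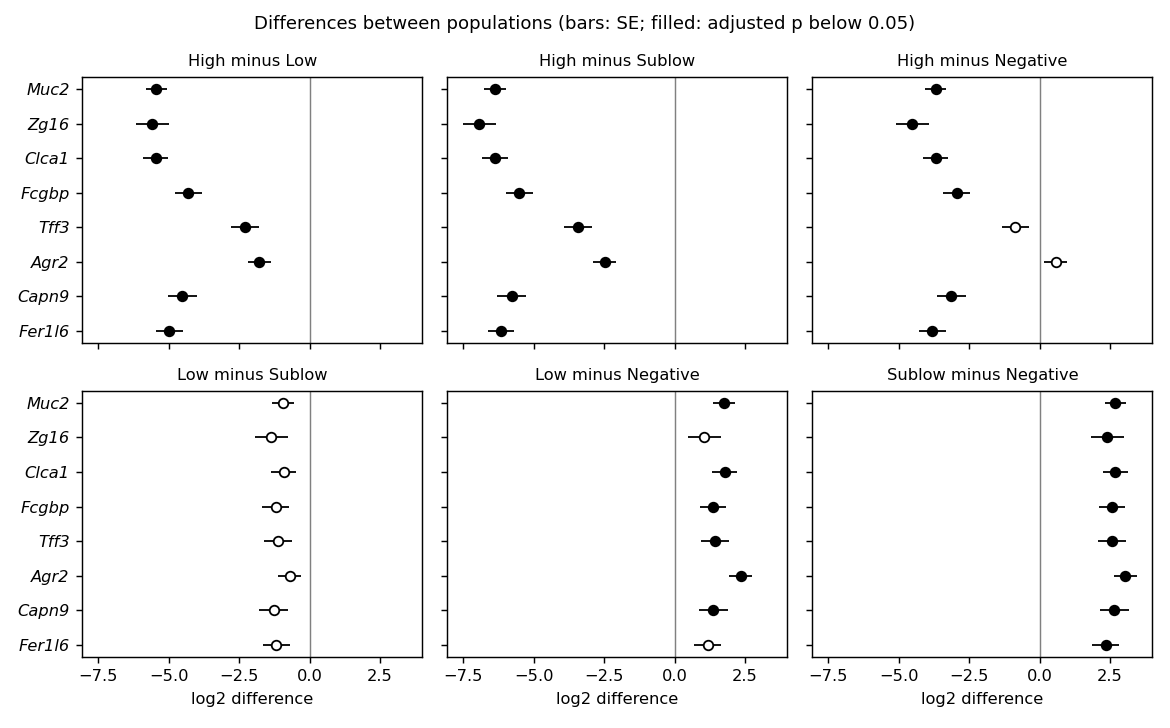
Log2 difference between populations for each gene (points, with SE bars; filled where the adjusted p is below 0.05), 1 panel for each of the 6 comparisons. Every gene is lower in High than in Low and Sublow, none passes between Low and Sublow, and all 8 are higher in Sublow than in Negative.

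High held less of the members than the other populations in every test except those of Tff3 and Agr2 against Negative, which did not pass. Against Low, 8 of 8 were lower (19.3% of all genes were lower in that comparison, and 26.4% were lower with no overlap between libraries, as all 8 were), with differences from −5.57 (Zg16) to −1.78 (Agr2) and a median of −4.74, against 0.10 over all genes. In the comparison with Sublow, 8 of 8 were lower (25.3% of all genes), from −6.93 (Zg16) to −2.48 (Agr2). Next to Negative, 6 of 8 were lower (25.8% of all genes), from −4.52 (Zg16) to −2.95 (Fcgbp), and Tff3 and Agr2 did not pass. In all 3 comparisons Tff3 and Agr2 differed least. These 3 comparisons share the High libraries.

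Sublow held more of all 8 than Negative. The differences ran from 2.35 ± 0.48 SE (Fer1l6) to 3.05 ± 0.41 (Agr2) on the log2 scale, with adjusted p from 0.00129 (Agr2) to 0.0133 (Zg16), and the 3 libraries of each population did not overlap for any of the 8 genes (18.9% of all genes were higher without overlap). By the test, 8 of 8 were higher, as were 15.1% of all genes. With only those 6 libraries in the fit, 1 of 8 passed, Muc2, and the adjusted p of the other 7 lay between 0.0530 and 0.0698. Zg16 also missed the threshold without Sublow C (adjusted p = 0.0550), without Negative B (0.0581) and with library weights, where its difference was 1.36 (0.0830) in place of 2.41.

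Low held more than Negative of 6 of the 8 (30.3% of all genes were higher). Agr2 differed most (2.35 ± 0.41 SE, adjusted p = 0.000370), followed by Clca1 (1.78 ± 0.45, adjusted p = 0.00461) and Muc2 (1.75 ± 0.38, adjusted p = 0.00186). Tff3 (1.42 ± 0.50), Capn9 (1.38 ± 0.52) and Fcgbp (1.35 ± 0.47) passed with adjusted p between 0.0256 and 0.0386. Fer1l6 (1.17 ± 0.48, adjusted p = 0.0527) and Zg16 (1.05 ± 0.58, adjusted p = 0.144) did not. Fer1l6 passed in edgeR (adjusted p = 0.0235), in DESeq2 (0.00687), with quantile scaling (0.0335), and with a pseudocount of 5 or a mean of at least 50 (0.0473 and 0.0491). With a replicate block Capn9 lost its call (adjusted p = 0.0510) and Fer1l6 gained one (0.0462). Capn9 also lost it with quantile scaling (0.112) and with no filter (0.0536). With only those 6 libraries in the fit, 4 of 8 passed, and Fcgbp (adjusted p = 0.0589) and Capn9 (0.0539) did not. Without Low B 3 of 8 passed, and without Negative B 3 of 8, in both cases Muc2, Clca1 and Agr2.

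Low and Sublow were not separated by the test. The means of the 8 members were lower in Low, with log2 differences of −0.70 ± 0.41 SE (Agr2) to −1.36 ± 0.58 (Zg16), and 0 of 8 passed (limma, adjusted p from 0.0811 for Fcgbp to 0.245 for Agr2), while 13.3% of all genes were lower and 10.7% higher in Low. At an unadjusted p under 0.05, 6 of 8 would have passed, all but Clca1 and Agr2. DESeq2 passed 1 of 8 (Capn9, adjusted p = 0.0435) and edgeR 0. The result turned on Low B: without it, 7 of 8 were lower in Low, all but Agr2, with Muc2 at −1.43 (adjusted p = 0.00698) and Fcgbp at −1.81 (adjusted p = 0.00639). Without Sublow A, 2 of 8 passed (Zg16 and Tff3), and without Negative B, 1 of 8 (Capn9).

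Within Low, Sublow and Negative most members rose and fell together from library to library. In Sublow B, Tff3 (−0.12) and Agr2 (−0.34) lay below their population means on the log2 scale and the other members above. High was less uniform, as High A held the most of 2 members (Muc2 and Capn9) and the least of 2 others (Tff3 and Agr2). Low B held the most of all 8 genes among the Low libraries, while Sublow A and Negative B held the least of all 8 among theirs. In reads, the members took 3.68% of Low B against 1.11% of Low A and 1.37% of Low C. Other cell type markers moved with these libraries. The 10 enterocyte markers summed to 49893 normalised counts in Low B against 18988 and 17905 in Low A and C, and to 969493 in Negative B against 627270 and 649666 in Negative A and C. In Sublow they summed to 245004, 507641 and 76942 in A, B and C, an order the members did not follow, whereas 19 other goblet markers summed to 20061, 27656 and 38494. Those goblet markers summed to 13122, 22185 and 11197 in Low A, B and C, with B again the highest. In Negative A, B and C they summed to 11137, 11757 and 14210, so Negative B was not their lowest library as it was for the members. The part of these cells in the members' spread was not tested.

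**Figure D3:**
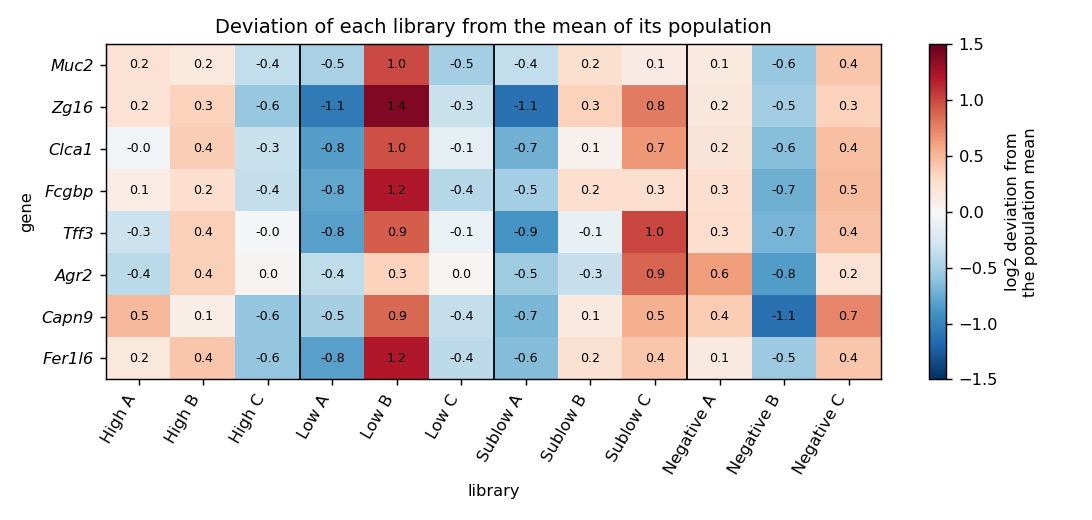
Deviation of each library from the mean of its population, in log2 units, for the 8 genes (rows) and 12 libraries (columns); red is above and blue below the mean. Low B is above its mean for every gene, from 0.35 (Agr2) to 1.39 (Zg16), and Sublow A and Negative B are below theirs for every gene.

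Over the 12 libraries, the Pearson correlation of log2 values between pairs of members ran from 0.672 (Zg16 with Agr2) to 0.997 (Zg16 with Fer1l6), with a median of 0.984 over 28 pairs. The libraries form 4 populations and share their scaling, so these values describe mainly the differences between populations. After the population means were removed, the correlations of the deviations ran from 0.508 (Muc2 with Agr2) to 0.981, with a median of 0.887. Agr2 had the lowest correlation with the mean of the other 7, at 0.745, and at 0.710 for the deviations. All values are descriptions over 12 libraries.

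The proportions between the members differed in High. Relative to Muc2 in the same library, Agr2 had 86.2% ± 28.9 (SD, n = 3) of the count in High, 4.46% ± 1.38 in Negative, against 6.92% ± 2.70 in Low and 6.01% ± 2.96 in Sublow. Tff3 had 24.05% ± 7.15 in High, 3.28% ± 0.299 in Negative, against 2.67% ± 0.730 in Low and 3.32% ± 1.92 in Sublow. The High libraries of both genes lay above all 9 others. Fcgbp had 366% ± 25.2 of the Muc2 count in High, 219% ± 21.5 in Negative, 167% ± 28.8 in Low and 201% ± 19.0 in Sublow, again with High above all others. An exact permutation F-test of the log2 ratio over the 4 populations (369600 arrangements, one-sided in F, adjusted over the 7 ratios tested) gave adjusted p = 0.00955 for Fcgbp, 0.0311 for Agr2 and 0.0342 for Tff3. The 7 ratios share the Muc2 count. These are ratios of reads without regard to length, used only to compare populations.

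The other 4 ratios did not pass. Clca1 had 21.2% ± 3.46 of Muc2 in High, 20.98% ± 0.933 in Negative, 21.8% ± 5.43 in Low and 21.8% ± 7.503 in Sublow (exact permutation, adjusted p = 0.9996). Zg16 had 10.1% ± 1.35 in High and 18.0% ± 0.843 in Negative, with Low and Sublow spread from 7.39% to 23.3% across both (exact permutation, adjusted p = 0.215). Capn9 had between 0.211% and 0.510% and Fer1l6 between 1.14% and 2.32% of the Muc2 count over all 12 libraries, each with an adjusted p of 0.101 in the exact permutation test. Without Negative B Capn9 passed as well, and 4 of 7 ratios did.

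**Figure D4:**
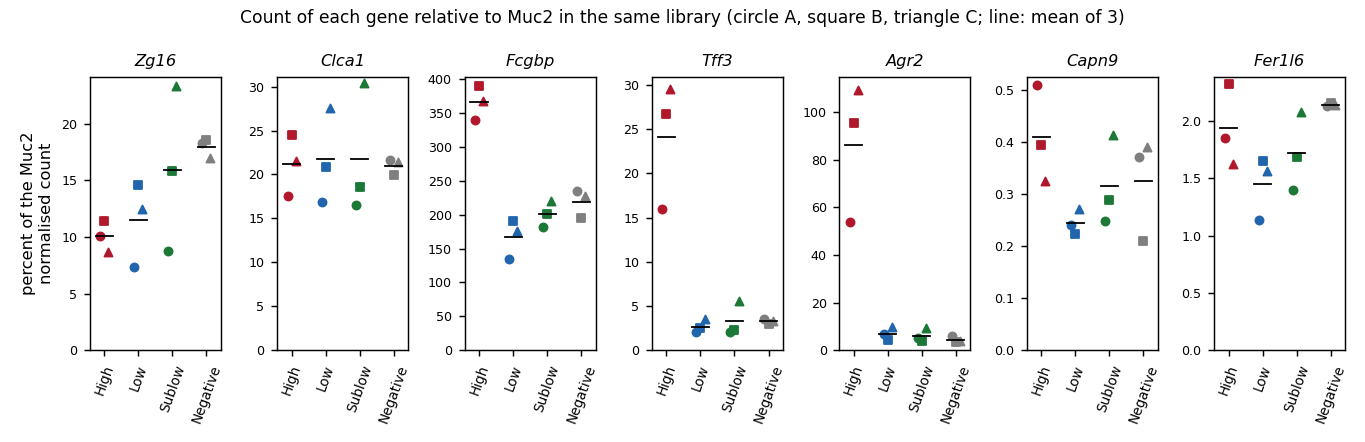
Normalised count of 7 genes as a percent of the Muc2 count in the same library, by population (points are libraries, lines the mean of 3, linear axes from 0). Agr2, Tff3 and Fcgbp are highest in all 3 High libraries, and the mean of Clca1 is between 20.98% and 21.8% in every population.

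Other gel-forming mucins were scarce. Muc6 had 193 ± 33.2 normalised counts (SD, n = 3) in High, 358 ± 57.6 in Negative, 138 ± 4.83 in Low and 244 ± 72.3 in Sublow, Muc5b at most 33.7 ± 4.47 (Negative), and Muc5ac at most 8.31 ± 2.53 (Negative). Muc6 and Muc5b were higher in Negative than in High (log2 −0.89 and −1.27, High minus Negative), unlike Muc2's order, in which Sublow was highest. Scaled to the same total, 0 of these 2 passed, and their median difference was −0.60 in place of −1.08. Muc19 was not among the symbols used here.

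Among close relatives, Capn8 and Capn13 had the order of populations of Capn9, and the others named here did not. Among the Clca genes, Clca3b had its highest level in Low (3193 ± 1110 normalised counts in High, 31671 ± 4112 in Low, 13341 ± 7382 in Sublow, 2162 ± 1580 in Negative) and Clca4b in Negative (562 ± 123, 3231 ± 722, 9497 ± 5649 and 21175 ± 5153). Clca2 was highest in High, at 170 ± 19.0 against 14.3 ± 10.6 in Low. Agr3, a paralogue of Agr2, was also highest in High, at 384 ± 73.8 against 137 ± 27.5, 28.03 ± 25.4 and 12.4 ± 9.10 in Low, Sublow and Negative. Capn8, which is known to act with Capn9 in gastric mucous cells, had 55.0 ± 14.4, 266 ± 90.8, 372 ± 42.0 and 88.4 ± 24.6 in High, Low, Sublow and Negative. Capn13 ran from 52.8 ± 9.84 in High to 383 ± 67.8 in Sublow and the ferlin Myof from 107 ± 22.3 in Negative to 608 ± 193 in Sublow. Of 25 relatives tested, 3 were higher and 7 lower in High than in Low (23.6% and 19.3% of all genes). In Sublow against Negative 7 were higher and 4 lower (15.1% and 12.7% of all genes), and the 4 became 1 when scaled to the same total (with 11 higher), with quantile scaling or without Sublow A, and 0 without Negative B.

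Most goblet markers outside the 8 were lower in High than in Low and higher in Sublow than in Negative, like the members, but they were divided between High and Negative. Of 17 tested, 11 were lower in High than in Low and 0 higher (19.3% and 23.6% of all genes), with a median of −1.98. The largest differences were in Ccl6 (−4.80), Bcas1 (−4.48), Spink4 (−4.26) and Rep15 (−3.66). In Sublow 15 were higher than in Negative (15.1% of all genes), led by Pla2g10 (3.26), Bcas1 (2.98), Bace2 (2.89) and Rep15 (2.67). Oit1 was lower there (−0.73, adjusted p = 0.0492; 12.7% of all genes were lower), a call that was lost under each of the 3 other scalings or tools and without Low B, Sublow A or Negative B. In High against Negative, 10 were lower and 4 higher (25.8% and 28.8% of all genes), where 6 members were lower and 0 higher. Those 4 were Bace2 (2.89), Ttc39a (1.74), Galnt12 (1.30) and Smim6 (1.14), while Ccl6 (−4.02) and Spink4 (−3.22) led the lower ones. In Low against Negative 11 were higher (30.3% of all genes), and Oit1 (−1.57) and Scin (−1.52) were lower (26.8% of all genes). Between Low and Sublow 2 were lower in Low (13.3% of all genes), and 8 without Low B. Scin had about as much in Negative (5500 normalised counts) as in Sublow (5305). Retnlb, a marker of goblet cells of the large intestine, was at or under 2.43 normalised counts in the mean of every population, and Sval1 at or under 9.06.

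Transcription factors of the secretory lineage did not all follow the members. Atoh1 (24, 375, 634 and 118 normalised counts in High, Low, Sublow and Negative) and Spdef (67.2, 355, 573 and 94.8) had the order of the members. Of 11 tested, 5 were lower in High than in Low (19.3% of all genes), led by Atoh1 (−3.91), Gfi1 (−3.61), Spdef (−2.33) and Creb3l4 (−2.06). In Sublow 8 were higher than in Negative (15.1% of all genes). Foxa1 and Foxa2, endoderm factors that other secretory cells also use, had their highest means in High. Foxa2 had 419 normalised counts in High and 29.9 in Negative (log2 4.03), and Foxa1 1417 and 176 (3.08). By the test, however, 0 of the 11 factors were higher in High than in Low (23.6% of all genes). Klf4, known in goblet cell maturation, had 2607, 2398, 4882 and 5051.

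Genes of mucin glycosylation had calls in both directions. Of 23 tested, 9 were higher and 5 lower in High than in Low, beside 23.6% and 19.3% of all genes, so that the lower share was near that of all genes. St6galnac6 (log2 5.10), Gcnt1 (4.21), Fut2 (3.03) and B3gnt6 (3.11) were higher in High, while Chst4 (−4.09), a sulfotransferase, and Galnt5 (−3.43), which starts O-glycans, were lower. In Sublow against Negative 8 were higher and 2 lower (15.1% and 12.7% of all genes), with Fut2 (2.58), Galnt5 (2.56) and Chst4 (1.59) the highest and St3gal4 (−1.35) the lowest. The 2 lower became 1 under each other scaling and without Sublow A, 0 without Negative B and 4 without Low B.

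Among 24 genes of folding in the endoplasmic reticulum, 4 were higher and 5 lower in High than in Low (23.6% and 19.3% of all genes). Against Sublow, 17 were lower in High (25.3% of all genes) and 1 higher, Ero1lb (3.12, with 26.7% of all genes higher). When libraries were scaled to the same total, 11 were lower than in Sublow. The mean of their summed counts was highest in Negative, at 172543 normalised counts, against 148749 in Sublow. Negative libraries also had larger totals over all genes, 17.4 to 20.6 M normalised counts against 14.5 to 16.6 M in Sublow. The order of Negative and Sublow is therefore given for the authors' scaling only and may not hold under another. Ern2, the stress sensor of mucus cells that is a paralogue of Ern1, had 94.4 normalised counts in High, 223 in Negative, 867 in Low and 1290 in Sublow. Txndc5 and Dnajc10, thioredoxin-type folding factors, were also higher in Sublow than in Negative (log2 2.03 and 1.73), whereas P4hb, the main disulfide isomerase, was lower (−1.02).

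Genes of granule exocytosis changed in both directions. Of 21 tested, 12 were higher and 5 lower in High than in Low (23.6% and 19.3% of all genes), with Cadps (2.74) the highest and Nlrp6 (−3.10), Pycard (−2.83) and Sytl2 (−2.77) the lowest. Sytl2, a Rab27 effector, had 156, 1166, 2017 and 373 normalised counts in High, Low, Sublow and Negative, while Rab27a had 1649, 579, 746 and 152. In Sublow 10 were higher than in Negative and 7 lower (15.1% and 12.7% of all genes). The 7 lower became 0 when scaled to the same total, 2 with quantile scaling, 3 without Sublow A and 1 without Negative B.

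Genes that hydrate or process mucus were mostly lower in High. Of 15 tested, 8 were lower than in Low and 1 higher (19.3% and 23.6% of all genes). The higher gene was the guanylin receptor Gucy2c (1.28). Guca2a, its ligand guanylin, had 80.4, 1738, 3764 and 1299 normalised counts in High, Low, Sublow and Negative, the chloride channel Cftr 426, 6824, 5315 and 4538, and the sodium, potassium and chloride cotransporter Slc12a2 3836, 42924, 16749 and 2432. Best2, a channel of goblet cells of the large intestine, had at most 2.96 normalised counts in the mean of any population.

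Paneth cells are the other granule-rich secretory cells of the crypt. Their 15 markers summed to 1065 to 5216 normalised counts in High, 47959 to 126459 in Negative, 19739 to 48313 in Low and 13407 to 19261 in Sublow. Of the 15, 12 were lower in High than in Low and 0 higher (19.3% and 23.6% of all genes). In Sublow 8 were lower than in Negative and 1 higher (12.7% and 15.1% of all genes), where the mucus components were higher. Without Negative B 2 were lower, and with quantile scaling 4. The Negative libraries held the highest mean of the summed Paneth markers among the 4 populations and 0.454% of reads from the mucus components.

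**Figure D5:**
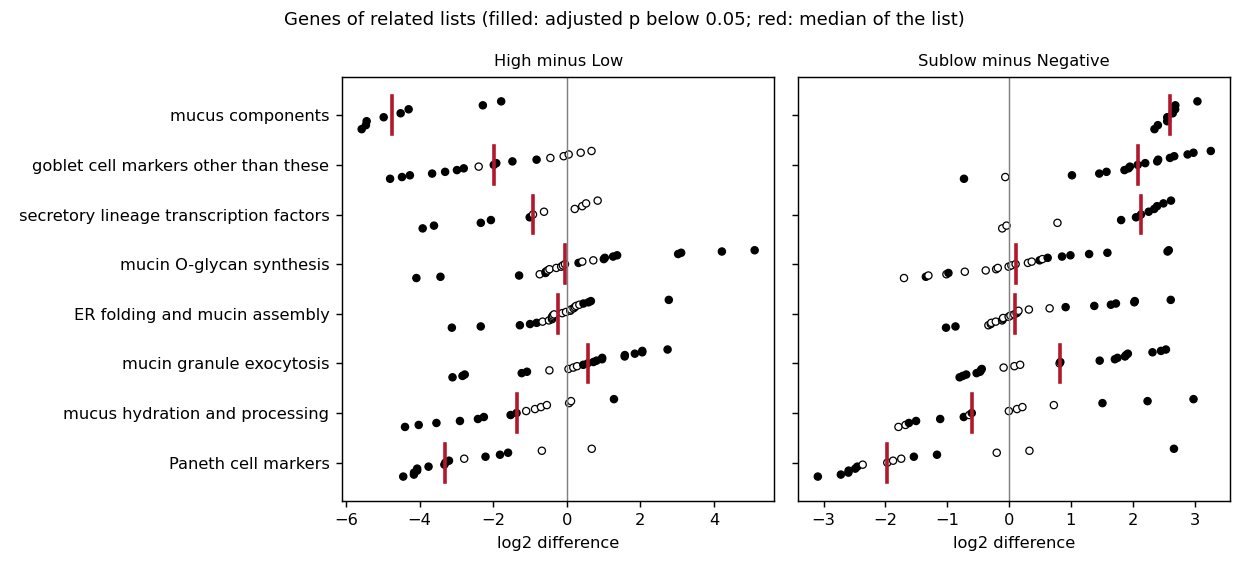
Log2 differences of the genes of 8 lists (points are genes, filled where the adjusted p is below 0.05; red lines are list medians) for High minus Low and Sublow minus Negative. The mucus components lie at the left in the first panel, at a median of −4.74, and at the right in the second, at 2.60; Paneth markers lie at the left in both.

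The genes whose log2 values over the 12 libraries were most like the mean of the 8 members, among 10185 genes with a mean of at least 100 normalised counts, were Bcas1 (Pearson r = 0.992), Cracr2a (0.991), Rep15, Tpsg1, Atoh1 (0.981), Spink4, Lrrc26, Sytl2, Galnt5 and Ccl9 (0.976). By the deviations from the population means, which do not hold the differences between populations, they were Tpsg1 (0.964), Sytl2 (0.963), Bcas1 (0.919), Gpt2, Sh3pxd2a, Spdef (0.910), Tmub1, Rab27a, Toe1 and Spop (0.888). Tpsg1, Sytl2 and Bcas1 stood in both. Cracr2a, which is in none of the lists above, had 31.0 ± 7.96 normalised counts (SD, n = 3) in High, 109 ± 34.9 in Negative, 285 ± 105 in Low and 427 ± 81.0 in Sublow.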

How the data were processed

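RNA of 12 libraries (4 Sox9-GFP populations, 3 each) was measured by single-end sequencing of ribosomal-RNA-depleted total RNA prepared with the SMARTer Pico v2 kit of Clontech, per the labels. The authors deposited 1 table of a signal per gene symbol and library; from its values, 100% per library were whole multiples of 1 step (tolerance 0.01), which is how reads divided by 1 factor per library appear. Their aligner, counting program, build, annotation and use of strand were steps not given in the sources used here. Library totals were 11.6 to 17.0 M reads.

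Values were used as log2(value + 1), for 16577 genes with at least 10 in at least 3 libraries. limma 3.58.1 (trend, 1 fit of 12 libraries, Benjamini-Hochberg within a comparison, threshold 0.05) gave differences with SE; log2 differences understate those of low genes. Ratios to Muc2 were tested by an exact permutation test, whose smallest possible p is 6.5e-05. On simulated data the limma test was checked to recover known changes. The changed genes there had less spread between libraries than most members had in Low, and higher counts than Capn9 in High. The check therefore does not cover such spread or such low counts. edgeR 4.0.16 and DESeq2 1.42.0 on the recovered reads, other scalings, filters, pseudocounts, library weights and left-out libraries were alternatives. edgeR called 7357 genes for High minus Low and 4169 for Low minus Sublow, against 7110 and 3979 by limma.

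The members, gene lists and tests were chosen with earlier results of these data known. From each list up to 4 genes with the largest difference past the threshold are named per comparison, and any against the majority; other list genes given (such as Klf4, Scin, P4hb, Rab27a, Fut2 and B3gnt6) were chosen after their values were seen, as were the scalings shown for lists. The 20 genes most like the members were picked by correlation, leaving out predicted genes and clones. The lists covered 16 groups besides the members: other goblet markers, secretory transcription factors, gel-forming mucins, relatives, O-glycans, folding, exocytosis, hydration, and Paneth, stem, cycling, enterocyte, enteroendocrine, tuft, leukocyte and stromal markers. Stem cell markers summed to 2070 to 84913 and cycling markers to 2044 to 37037 normalised counts, both highest in Low. Motif letters were set before matches were counted. Protein sequences were not used here.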

Additional observations from a re-analysis of the deposited data

How the results depend on the processing

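No member's difference changed sign in any of 1104 values (48 results under 23 settings each): 1058 kept their side of the threshold, 24 passed it where the reported test did not, and 22 lost it. Many of these values could not change sign. The replicate block, the other gene filters and the fit of only the 6 libraries repeat the reported difference. So does leaving out a library of a population that is not compared. Those settings can alter only the adjusted p. In Low minus Sublow, with 0 of 8 members called, DESeq2 called 1, and leaving out each library gave 0 to 7. All genes called there, 3979, became 7880 with library weights and 2473 with only the 6 libraries, and 2500 (without Sublow B) to 5603 with a library left out; without Low A they were 2521. In Low minus Negative, leaving out each library gave 3 (without Low B or Negative B) to 8 of 8 members. In Sublow minus Negative, members called fell to 1 with only the 6 libraries, where 46 genes of all were called against 4597, and stayed at 7 to 8 with a library left out; all genes were 6939 with library weights and 1729 (without Negative B) to 6239 with a library left out, with 2186 without Sublow C and 2763 without Sublow A. Library weights gave Sublow A 5.71, Sublow B 0.418 and Sublow C 0.215. Ratios to Muc2 called, 3, became 5 with a pseudocount of 5 and with quantile scaling, and 3 to 4 with a library left out. The causes were not tested.

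Scaling libraries to the same total shifted the median of all genes from 0.03 to 0.50 for High minus Negative and from 0.05 to 0.60 for Low minus Negative. Among called genes, it raised the share higher in the first population from 51.3% to 63.2% (High minus Sublow), 52.7% to 74.1% (High minus Negative), 44.7% to 71.4% (Low minus Sublow), 53.1% to 76.7% (Low minus Negative) and 54.4% to 86.2% (Sublow minus Negative, 64.6% with quantile scaling and 67.2% with edgeR). Low minus Negative then passed for Zg16 (1.61) and Fer1l6 (1.73) too.

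The replicate letters were not treated as pairs in the reported fit, though libraries of a letter were alike. Same-letter correlations of deviations were 0.0521 to 0.341 over 18 pairs, with a mean of 0.156, against a mean of −0.0781 over 36 other pairs. Of the 12 libraries, 12 correlated best with their own letter. With a replicate block, members called were 8, 8, 6, 0, 6 and 8 in the 6 comparisons in the order of the report's difference plot, as without it, but Capn9 lost (adjusted p = 0.0510) and Fer1l6 gained (0.0462) its call in Low minus Negative. Depth limits Capn9 most, with 5 to 11 reads in the High libraries and 20 in Negative B. Fer1l6 was also low in High, with 25 to 47 reads.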
